A study of Mus musculus with 6 samples.

Results

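Alveolar type 1 cells are the very thin, flat cells that cover most of the gas-exchange surface of the lung. Their marker genes were described here in lung metastases of Myc-driven mouse mammary tumours. The list held 9 genes known as markers of these cells, and 7 of them had at least 1 probe set annotated with that symbol alone: Ager, Aqp5, Hopx, Pdpn, Rtkn2, Emp2 and Cav1. The other 2 genes, Clic5 and Akap5, had no such probe set and were not analysed here. These 7 genes had 10 probe sets, of 12394 genes and 22626 probe sets on the arrays. Each gene was followed through its brightest probe set over the 6 arrays.

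The tissue was lung metastases of MMTV-Myc mice of the FVB strain, flash frozen at endpoint and hybridised to Affymetrix arrays. In these mice the MMTV promoter, which is active in mammary epithelium, drives the Myc oncogene, and all 6 metastases carried this transgene. The labels give the genotype Myc E2F2 KO to 3 metastases (here KO, an E2F2 knockout) and Myc E2F3 Het to 3 (here Het, heterozygous for E2F3). Replicates are numbered in order of deposit. The labels give no age for the mice, and neither normal lung nor metastases with both E2F genes intact were analysed here. One number recurs in the titles of all 3 Het arrays, while the 3 KO titles each carry another. The 3 Het metastases may therefore come from 1 mouse, in which case genotype and mouse cannot be told apart.

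In the lung, type 1 cells share each alveolus with cuboidal type 2 cells, which make surfactant, and lie against a dense capillary network. A metastasis cut from the lung can therefore hold alveolar tissue that was enclosed or taken along. In bulk RNA, fewer cells of a type and less RNA per cell cannot be told apart. Several of these genes are also made by other cells. Cav1 is abundant in endothelium and fibroblasts, Pdpn in lymphatic endothelium, fibroblasts and basal epithelium, Emp2 in many epithelia, Hopx in heart muscle and some stem cells, and Aqp5 in salivary and other glands. Of the members, Ager is the one usually regarded as most restricted to lung.

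RefSeq promoter windows (GRCm38.p6, from the C57BL/6J strain) were matched by symbol for 8 of the 9 genes, in 10 windows. Rtkn2 had no entry. The 250 bases before the annotated start are shown for 3 members, because they hold one of the motifs searched and lie outside the gene's own transcripts. Capitals mark a motif match. The Aqp5 window is chr15:99590778-99591027 on the plus strand and lies within the long noncoding RNA gene Gm34765. The Pdpn window is chr4:143299565-143299814 and the upstream Hopx window chr5:77115124-77115373, both on the minus strand and outside any annotated gene.
Aqp5: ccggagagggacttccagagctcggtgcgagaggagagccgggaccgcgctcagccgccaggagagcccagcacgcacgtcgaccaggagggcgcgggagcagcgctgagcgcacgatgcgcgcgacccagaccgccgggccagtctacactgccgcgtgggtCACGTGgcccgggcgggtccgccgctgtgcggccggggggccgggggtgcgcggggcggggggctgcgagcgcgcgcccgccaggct
Pdpn: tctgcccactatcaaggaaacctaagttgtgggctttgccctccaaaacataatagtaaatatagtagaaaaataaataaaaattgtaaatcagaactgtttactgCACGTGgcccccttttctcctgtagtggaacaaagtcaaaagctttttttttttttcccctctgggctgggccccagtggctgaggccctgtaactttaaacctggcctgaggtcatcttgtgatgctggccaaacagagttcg
Hopx: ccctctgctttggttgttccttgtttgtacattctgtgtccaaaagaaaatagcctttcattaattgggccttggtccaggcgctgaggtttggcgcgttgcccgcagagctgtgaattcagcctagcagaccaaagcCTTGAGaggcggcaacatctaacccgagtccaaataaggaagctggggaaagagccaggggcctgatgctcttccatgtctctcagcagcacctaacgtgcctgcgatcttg
The motifs were searched on both strands and were chosen with these windows in view. They were the E-box CACGTG, which reads the same on both strands and is bound by Myc with Max, CTCAAG for the lung and thyroid factor NKX2-1, and GGAATG for the TEAD factors. The E-box was found in 3 of the 10 windows, those of Aqp5 and Pdpn and the downstream window of Hopx, against 6.02% of all 32851 windows. The NKX2-1 letters were found in 1, the upstream Hopx window (reading CTTGAG on the strand shown), against 13.3% of all windows, and the TEAD letters in 0, against 12.6%. These matches describe the letters in the windows and show no binding.

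The 6 arrays had been scaled to a common level, with medians between 138 and 165. The ratio of 3' to 5' signal, a measure of RNA and labelling quality, set Het replicate 1 apart for Actb and Tfrc. For Actb this array had 2.38 and the others 1.48 to 1.73. For Tfrc it had 11.8 and the others 3.25 to 5.15. For Gapdh it was highest by little, with 0.93 against 0.75 to 0.90. The KO minus Het differences of the members are therefore also given without this array. E2f2 itself had no annotated probe set, so nothing here checks the KO labels. The labels do not state separate animals, and p-values then cover the spread between these samples alone, which may be technical.

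Alveolar type 1 genes differed widely among the KO metastases. Their mean level spanned 1.50 on the log2 scale among KO and 0.63 among Het metastases, against a mean difference of 0.40 between the genotypes. Both spans rested on single arrays. Without KO replicate 3 the KO span was 0.44 and the difference 0.83. Without Het replicate 1 the Het span was 0.05 and the difference 0.60. All 7 measured genes were highest in KO replicate 1, and 4 of them were lowest in KO replicate 3, another metastasis of the same genotype. Of all 7970 genes kept by the filter on dim signals, 22.2% were highest in KO replicate 1 and 23.0% lowest in KO replicate 3. Of the 6 members kept by this filter, 0 passed the test of KO against Het, as did 0% of all 13576 probe sets.

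**Figure D1:**
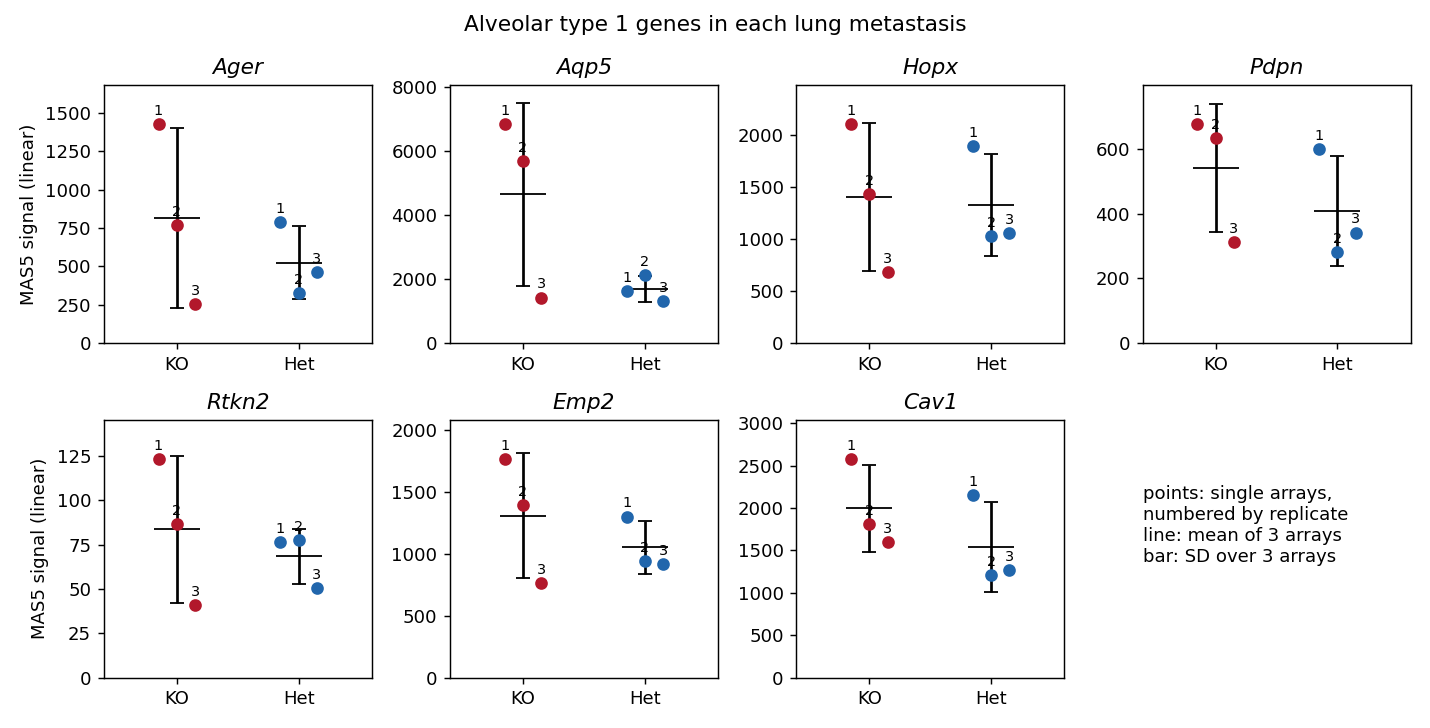
MAS5 signal on a linear scale for each of the 7 measured genes, with KO arrays (red) left of Het arrays (blue). Points are single arrays numbered by replicate, and the line and bar give the mean and SD of 3 arrays. KO replicate 1 is the highest point in every panel, and in all panels the KO and Het points overlap.

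Ager encodes RAGE, a receptor of the immunoglobulin superfamily that sits on the basal face of type 1 cells. Its signal was 1427, 767 and 251 in KO replicates 1, 2 and 3, against 787, 323 and 463 in Het replicates 1, 2 and 3. KO replicates 1 and 3 were the 2 extremes of the series, 5.68-fold apart, with all Het arrays between them. KO metastases averaged 815 ± 589.5 and Het metastases 524 ± 238 (mean and SD of 3 arrays). On the log2 scale KO minus Het was 0.40 (SE 0.89), with a 95% interval from -1.85 to 2.65. Without KO replicate 1 its sign turned to -0.15, and without Het replicate 1 it was 0.73.

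Aqp5 encodes aquaporin 5, the water channel of the apical membrane of type 1 cells. Its signal was 6824, 5689.7 and 1417 in KO replicates 1, 2 and 3, against 1619.7, 2119 and 1304 in Het replicates 1, 2 and 3. KO replicates 1 and 2 lay above all Het arrays, while KO replicate 3 lay among them. KO metastases averaged 4643 ± 2852 and Het metastases 1681 ± 411 (mean and SD of 3 arrays). The log2 difference was 1.20 (SE 0.89), with a 95% interval from -1.03 to 3.43, and it was the largest of the 7. It ran from 0.78 without KO replicate 1 to 1.91 without KO replicate 3, so its sign did not depend on any 1 array, and it was 1.19 without Het replicate 1.

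Hopx encodes a small homeodomain protein without DNA binding of its own, which marks the type 1 fate. Its signal was 2105, 1437 and 682 in KO replicates 1, 2 and 3, against 1897, 1026 and 1061 in Het replicates 1, 2 and 3. The arrays ran in the same order as for Ager, with Het replicate 1 next to KO replicate 1 at the top. KO metastases averaged 1408 ± 712 and Het metastases 1328 ± 493 (mean and SD of 3 arrays), and the log2 difference was 0.001 (SE 0.61), or 0.29 when Het replicate 1 was left out. A dimmer probe set of Hopx had 639, 572 and 231 in KO replicates 1, 2 and 3, against 435, 291 and 292 in Het replicates 1, 2 and 3, and a difference of 0.38. Both probe sets were highest in KO replicate 1 and lowest in KO replicate 3. They differ in how KO replicate 2 stands to Het replicate 1.

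Pdpn encodes podoplanin, a mucin-type membrane protein that carried the name T1-alpha in lung work. Its signal was 678, 634 and 314 in KO replicates 1, 2 and 3, against 602, 281 and 342 in Het replicates 1, 2 and 3. KO replicates 1 and 2 and Het replicate 1 were close together at the top, and the other 3 arrays lay between 281 and 342. The log2 difference was 0.39 (SE 0.47). Leaving out Het replicate 1 gave 0.70, and leaving out Het replicate 2 gave 0.17.

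Rtkn2, a gene of the rhotekin family, was dim and fell just under the filter, at the 38.8th percentile of mean signal. Its signal was 123, 86.7 and 41.0 in KO replicates 1, 2 and 3, against 76.8, 77.8 and 50.5 in Het replicates 1, 2 and 3. Its KO arrays spanned the whole range and enclosed the Het arrays. With no filter on dim probe sets its log2 difference was 0.16 (SE 0.58), and the untested difference was 0.24 with Het replicate 1 left out. Without detection calls, it is not known whether this probe set was above background.

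Emp2 encodes a tetraspan membrane protein of the PMP22 family, and Cav1 encodes caveolin 1, the coat protein of caveolae. Emp2 had 1768, 1394 and 767 in KO replicates 1, 2 and 3, against 1303, 939.9 and 919.9 in Het replicates 1, 2 and 3. Its KO arrays again enclosed the Het arrays. The log2 difference was 0.25 (SE 0.48), or 0.41 with Het replicate 1 left out, while its dimmer probe sets were at 0.73 and 0.66. The brighter of these was also highest in KO replicate 1, whereas the other was highest in KO replicate 2. Cav1 had 2578, 1814 and 1601 in KO replicates 1, 2 and 3, against 2157, 1212 and 1265 in Het replicates 1, 2 and 3. All 3 KO arrays exceeded Het replicates 2 and 3, and Het replicate 1 lay above KO replicates 2 and 3. The log2 difference was 0.39 (SE 0.32), and 0.65 without Het replicate 1.

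In limma, which set the 3 KO samples against the mean of the Het arrays, 0 of the 6 members kept by the filter passed an adjusted p of 0.05 (adjusted p = 0.9999 for each), and 0 had an unadjusted p under 0.05. Over all 13576 probe sets the share called was 0%, with 305 at an unadjusted p under 0.05. With each array as a sample, limma also called 0 of 6 members and 0% of all probe sets, with 0 and 1395 at an unadjusted p under 0.05, and Aqp5 had the lowest unadjusted p of the members, at 0.0587 (adjusted p = 0.491). Such p-values do not show that the groups are alike, and the intervals are wide. The KO mean was above the Het mean for 7 of 7 members, Hopx by only 0.001, against 47.7% of all probe sets. The median difference was 0.39 over the members and -0.02 over all probe sets. The arrays of KO and Het did not overlap for 0 of the 7 members, against 16.8% of all probe sets (7.87% with KO above Het and 8.89% with KO below Het). Without KO replicate 3 this number was 4 of 7, against 36.7% of all probe sets on the same arrays, and without Het replicate 1 it was 1 of 7, against 26.8%. With both KO replicate 1 and Het replicate 1 left out it was 1 of 7, against 39.1%.

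**Figure D2:**
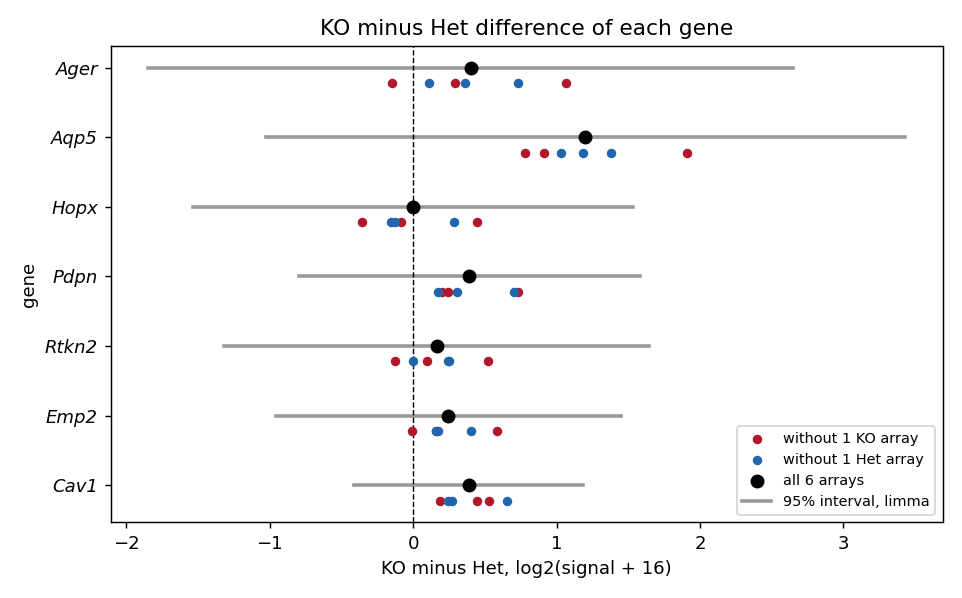
KO minus Het difference on the log2(signal + 16) scale for each gene (black, 6 arrays) with its 95% limma interval (grey; for Rtkn2 from the fit with no filter). Small points leave out 1 KO array (red) or 1 Het array (blue). Every interval includes 0, and the small points of Aqp5, Cav1 and Pdpn stay above 0.

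The members shared the order of the KO metastases, while the 7 genes had 6 different orders over all 6 arrays. Relative to the mean of the 6 arrays on the log2 scale, the mean of the 7 genes was 0.85, 0.41 and -0.66 in KO replicates 1, 2 and 3, and 0.20, -0.38 and -0.43 in Het replicates 1, 2 and 3. It thus spanned 1.50 among KO metastases and 0.63 among Het metastases, while the mean difference between the groups was 0.40. Both spans rest on single arrays. With Het replicate 1 left out, the Het span was 0.05 and the difference 0.60, and with KO replicate 3 left out, the KO span was 0.44 and the difference 0.83. All 7 genes ran from KO replicate 1 through KO replicate 2 down to KO replicate 3, as did 24.5% of all genes. Of the Het arrays, replicate 1 was highest for 5 of 7 genes, against 40.7% of all genes, and this is the array with the raised 3' to 5' ratios. The part of RNA quality in its level was not tested. The spread was large as well. The highest and lowest arrays differed by over 1 on the log2 scale for 7 of 7 members, against 21.6% of all genes. The median of this range was 1.29 for the members and 0.63 for all genes. It was 2.43 for Ager and 1.08 for Cav1, the widest and the narrowest.

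**Figure D3:**
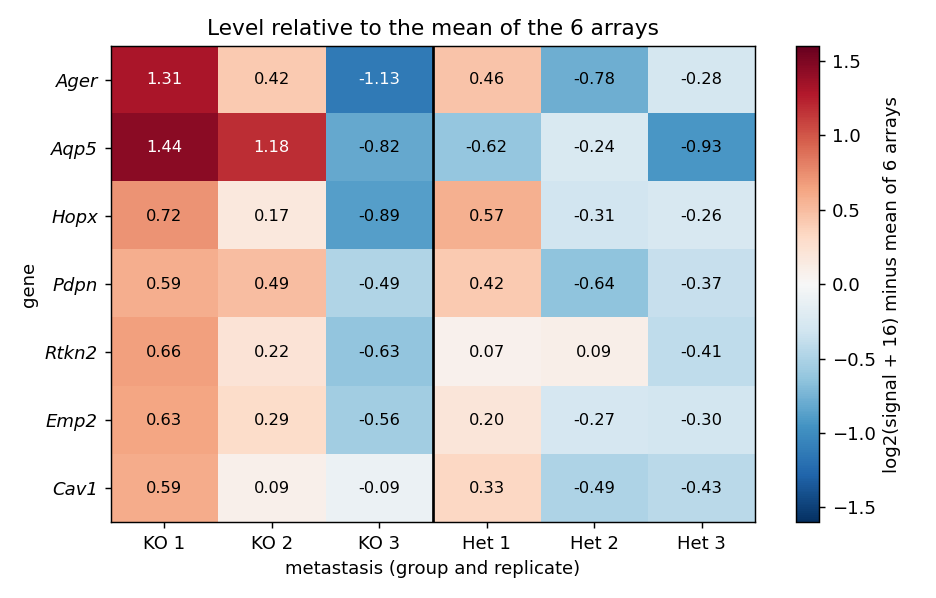
Level of each gene in each metastasis, as log2(signal + 16) minus the mean of the 6 arrays, with KO columns left of Het columns. The column of KO replicate 1 is above 0 for all 7 genes and that of KO replicate 3 below 0 for all 7. Aqp5 is the 1 gene below 0 in Het replicate 1.

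Aqp5 departed most from the other members. Set against the mean of the other 6 genes, its centred log2 level was at 0.69, 0.90 and -0.19 in KO replicates 1, 2 and 3, and at -0.97, 0.16 and -0.59 in Het replicates 1, 2 and 3. It was therefore high for the level of the other genes in KO replicates 1 and 2, and low in Het replicates 1 and 3. Without Aqp5, the mean difference of the members was 0.27 in place of 0.40. Cav1 stood out in KO replicate 3, where it was 0.66 above the other members, against -0.38 to 0.15 on the other arrays. Cav2, which forms complexes with caveolin 1, was also high there, with 1990.4, 1599 and 3642 in KO replicates 1, 2 and 3, against 1797, 1871 and 1995 in Het replicates 1, 2 and 3. KO replicate 3 was thus the highest array for Cav2 and the lowest of the KO arrays for Cav1. Hopx lay from -0.28 to -0.15 in KO and from 0.08 to 0.43 in Het metastases relative to the other members, without overlap of the groups, while its dimmer probe set had a KO minus Het difference of 0.38. These departures were picked after their values were seen and were not tested.

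**Figure D4:**
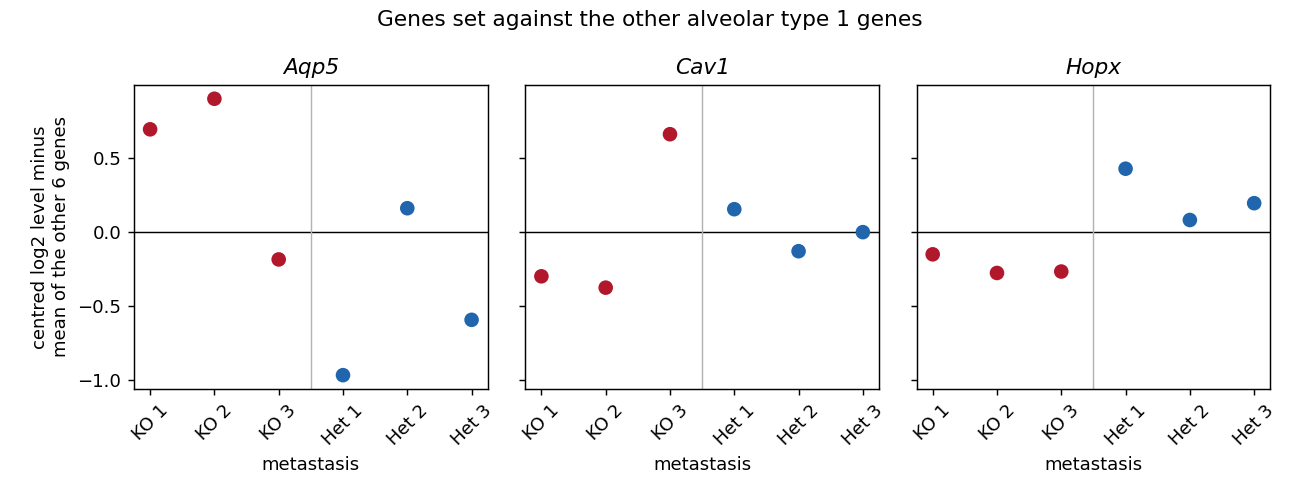
Centred log2 level of Aqp5, Cav1 and Hopx minus the mean of the other 6 members, in KO (red) and Het (blue) metastases. Aqp5 lies at 0.69 and 0.90 in KO replicates 1 and 2 and at -0.97 in Het replicate 1, Cav1 is at 0.66 in KO replicate 3, and the KO points of Hopx lie below its Het points.

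Further genes reported in type 1 cells gave a mixed picture between the genotypes. Of 24 such genes, 18 were on the array and 15 were kept by the filter. None was called (0%, as over all probe sets), 9 were higher and 6 lower in KO, and the median difference was 0.13, against -0.02 for all probe sets. Over the metastases, 7 of the 15 were highest in KO replicate 1 and 7 lowest in KO replicate 3. Their mean was 0.54, 0.23 and -0.43 in KO replicates 1, 2 and 3, and 0.24, -0.38 and -0.19 in Het replicates 1, 2 and 3, relative to the mean of the 6 arrays. Lmo7, which encodes a LIM domain protein, had 769, 422 and 132 in KO replicates 1, 2 and 3, against 509, 210.3 and 306 in Het replicates 1, 2 and 3. This is the order of Ager, but Lmo7 was named because its profile lay near that of Ager, so the likeness follows from the choice. Cldn18, a tight junction gene of alveolar epithelium picked after its values were seen, had 1179, 574 and 100.01 in KO replicates 1, 2 and 3, against 555, 137 and 256 in Het replicates 1, 2 and 3. It too was highest in KO replicate 1 and lowest in KO replicate 3. Genes named by moderated t or brightness took other orders. Krt7 and Timp3 were highest in KO replicate 1 but lowest in Het replicate 3. Agrn was lowest in KO replicate 1, and Cyp2b10 was highest in Het replicate 1 and lowest in KO replicate 3. Igfbp2, a binding protein for insulin-like growth factors, did not follow the order of Cldn18 either. It had 699, 2333 and 878 in KO replicates 1, 2 and 3, against 461, 293 and 338 in Het replicates 1, 2 and 3, so all KO arrays were above all Het arrays (log2 difference 1.62, SE 0.68; limma adjusted p = 0.9999).

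Among genes that work with the members, the caveola list had 5 genes kept of 7 on the array, with 5 higher in KO and 0 called. For this list and those that follow, the share called over all probe sets was likewise 0%. Cavin1 and Cavin2, which encode coat proteins of caveolae, followed the type 1 order at the ends. Cavin2 had 1583, 943 and 373 in KO replicates 1, 2 and 3, against 1124, 627 and 539.9 in Het replicates 1, 2 and 3. The lowest array of Cavin2 was KO replicate 3, where Cav2 was highest. Of the 5 caveola genes kept, 4 were highest in KO replicate 1, but only 2 were lowest in KO replicate 3. Ehd2 had 318, 242 and 213 in KO replicates 1, 2 and 3, against 211, 162 and 162 in Het replicates 1, 2 and 3. Cavin3 had a range of only 0.41 on the log2 scale and was lowest in Het replicate 3. Ligands of the Ager receptor had 4 genes kept of 5 on the array, with 3 higher and 1 lower in KO and 0 called. S100a8, an alarmin of neutrophils, had 644, 4994 and 3088 in KO replicates 1, 2 and 3, against 3325, 1534 and 2133 in Het replicates 1, 2 and 3. S100a8 was lowest in KO replicate 1, the array with the highest Ager, but the other ligands kept were not. S100a4 was highest there, with 411, 270 and 258 in KO replicates 1, 2 and 3, against 252, 138 and 128 in Het replicates 1, 2 and 3. S100a9 was lowest in Het replicate 2 and S100a6 in Het replicate 3. Of the other aquaporins, 2 of 7 on the array were kept. Aqp1, the channel of capillaries, had 1293, 1236 and 461 in KO replicates 1, 2 and 3, against 1235, 646 and 596 in Het replicates 1, 2 and 3, and Aqp3 was lowest in KO replicate 1, at 22.8. Regulators of the alveolar lineage had 10 of 13 genes kept, with 7 higher and 3 lower in KO and 0 called, and Nkx2-1, Gata6 and Tead1 were too dim to be kept. Partners of podoplanin had 6 of 7 kept, with 3 higher and 3 lower and 0 called.

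The means of the alveolar type 2 and endothelial lists moved with the members. Of the 12 type 2 genes kept, 10 were highest in KO replicate 1 and 9 lowest in KO replicate 3. Of the 16 endothelial genes kept, 14 were highest and 11 lowest there. The shares over all genes were 22.2% and 23.0%. Il33 of the type 2 list was highest in KO replicate 3, and Sftpc in KO replicate 2. Alveolar type 2 genes were at 1.47, 0.29 and -1.11 in KO replicates 1, 2 and 3, and 0.23, -0.60 and -0.28 in Het replicates 1, 2 and 3 (12 of 12 genes kept). Endothelial genes were at 0.70, 0.33 and -0.60 in KO replicates 1, 2 and 3, and 0.20, -0.31 and -0.33 in Het replicates 1, 2 and 3 (16 of 18 kept). Both lists ran from KO replicate 1 through KO replicate 2 and Het replicate 1 down to KO replicate 3, as the mean of the members did. The summed signal of the type 2 list ran from 15836 to 81551 in KO and from 28483 to 40973 in Het metastases, and that of the endothelial list from 2704 to 7418 in KO and from 3449 to 5364 in Het metastases. The mean of the genes of airway club and ciliated cells took another order. It was 1.08, -0.96 and -0.57 in KO replicates 1, 2 and 3, and 0.24, 0.33 and -0.12 in Het replicates 1, 2 and 3 (5 of 9 kept). KO replicate 2 was thus high in alveolar genes and lowest in this airway mean. Of the 5 kept, 1 gene, Tppp3, was instead lowest in KO replicate 3. Tppp3 had 276, 156 and 81.1 in KO replicates 1, 2 and 3, against 276, 185 and 150 in Het replicates 1, 2 and 3. The 4 genes of the list not kept include Foxj1, the master gene of ciliated cells, with a signal of at most 53.0 on any array.

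**Figure D5:**
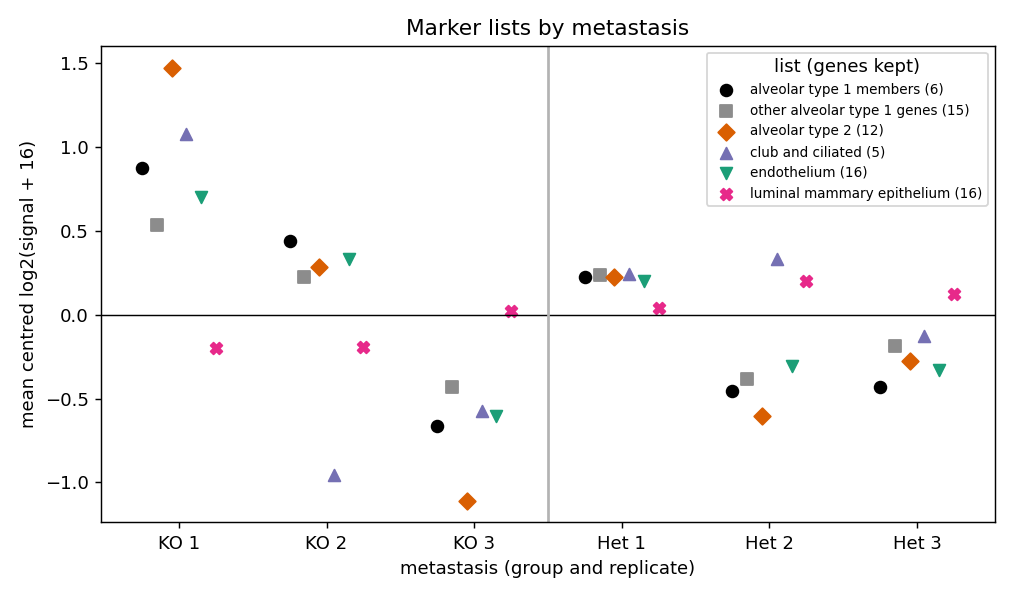
Mean of log2(signal + 16), relative to the mean of the 6 arrays, for lists of marker genes in each metastasis, with KO left of Het. The alveolar type 1, alveolar type 2 and endothelial lists are highest in KO replicate 1 and lowest in KO replicate 3, the airway list is lowest in KO replicate 2, and the luminal mammary list stays between -0.20 and 0.20.

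Further cell types were set beside the type 1 list, and some of them also make members of it. Genes of luminal mammary epithelium, the tumour's own lineage, ran from -0.20 to 0.02 in KO and from 0.04 to 0.20 in Het metastases (16 of 18 kept), with summed signals of 87728 to 97737 in KO and 96594 to 108158 in Het metastases. The mean of this list spanned 0.40 over the 6 arrays, against 1.54 for the mean of the 6 members kept. Single luminal genes moved more, and not together. Wap had 945, 3644 and 9295 in KO replicates 1, 2 and 3, against 9346, 7217 and 9654 in Het replicates 1, 2 and 3. Elf5 and Gata3 were also lowest in KO replicate 1, with ranges of 1.49 and 1.56 on the log2 scale, while 3 of the 16 genes kept were highest there. Basal and myoepithelial genes, among which Pdpn is also made, were at -0.96, 0.61 and 0.11 in KO replicates 1, 2 and 3, and 0.62, -0.28 and -0.09 in Het replicates 1, 2 and 3 (8 of 11 kept). Their mean was lowest in KO replicate 1, where Pdpn was highest, although Acta2 and Mylk, contractile genes of this list, were highest in KO replicate 1. Fibroblast genes were at 0.61, 0.28 and -0.23 in KO and -0.13, -0.32 and -0.21 in Het replicates 1, 2 and 3 (9 of 12 kept), and muscle genes at 0.82, 0.60 and -0.94 in KO and -0.20, -0.34 and 0.06 in Het replicates 1, 2 and 3 (7 of 9 kept). Alveolar macrophage genes were at 0.99, -0.03 and -0.26 in KO and 0.10, -0.38 and -0.43 in Het replicates 1, 2 and 3. All 5 genes kept of 7 were highest in KO replicate 1, as the members were, and of these Car4 is also on the endothelial list. Of the genes not kept, Siglecf was highest in KO replicate 1, at 46.9. Marco was highest in KO replicate 3, at 172, with at most 6.51 on any other array. Genes of lymphatic endothelium were at 0.24, -0.01 and -0.50 in KO and 0.51, -0.22 and -0.02 in Het replicates 1, 2 and 3 (2 of 4 kept, Lyve1 and Flt4). Het replicate 1 and KO replicate 1, 2 of the 3 arrays with the highest Pdpn, were at the top of this list. Prox1, the factor that defines this cell type, had at most 17.6 on any array. Mesothelial genes were at 0.15, 0.20 and -0.43 in KO and 0.44, -0.30 and -0.06 in Het replicates 1, 2 and 3 (3 of 5 kept). Of these, Krt19 is also on the luminal mammary list, and it was lowest in KO replicate 1 and highest in Het replicate 2. Msln was highest in Het replicate 1 and Gpm6a in KO replicate 2. T and B cells had 0 of 7 genes kept. The part of each of these cell types in the signal of the members was not tested.

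The genes with the profile most like the members were taken by the root-mean-square distance over the 6 arrays between centred log2 profiles, a description in which Het arrays may share a mouse. Of 7964 genes, the 10 nearest to the mean of the members were Fcgrt, Ablim1, Gucy1b1, Lamb1, Sema4a, Esam, Clec14a, Procr, Gpx8 and Ptprm, at distances from 0.06 to 0.12. Esam and Clec14a are known endothelial genes, and Procr encodes the endothelial protein C receptor. Nearest to Ager alone were Mme, Lmo7, Mettl7a1, Lrrk2 and Dpp4, at 0.12 to 0.16. Of these 15 genes, Lmo7 was on the type 1 list and Esam on the endothelial list. Among the members themselves, Emp2 lay nearest to the mean of the other 6 (0.15) and Aqp5 farthest (0.66), with 20 and 6783 of 7970 genes nearer to that mean.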

How the data were processed

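In all, 6 arrays were used, 3 KO and 3 Het. The authors deposited intensities on a linear scale. The submitters' processing notes name MAS5 and Affymetrix Expression Console, without versions. Each array had a 2% trimmed mean of 500.2, so the authors had scaled the arrays to one level. The number of arrays limits the precision.

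Members were matched through the platform annotation, with symbols updated by Entrez ID (GRCm38.p6 gene table; 20364 of 20380 probe sets with 1 symbol matched). A further 691 probe sets had several symbols and 1555 none. Each gene took its brightest probe set. Signals were transformed to log2(signal + 16), so differences understate the change of dim genes. The filter removed 64 controls and, by mean signal, the dimmest 40% of the rest, leaving 13576 probe sets. Rtkn2 fell below this filter.

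The 3 KO arrays were compared with the mean of the 3 Het arrays, because the Het titles share a number, with limma 3.58.1 in R 4.3.3 (eBayes with trend; Benjamini-Hochberg over all probe sets). This assumes that the single averaged Het sample has the variance of the KO samples. SD is over 3 arrays, and SE and the 95% interval are those of this fit. The fit was run on simulated data drawn as independent arrays, where only the closeness of its estimates to the planted differences was required. Het arrays may share a mouse, so that run gives no error rate or power for these data. Members and lists were chosen with earlier results of these data known. All members were named. From other lists, genes were named by the largest moderated t or brightness, or by nearness to the members. Not every gene that met this rule is shown, among them Foxa1, Etv5, Klf5 and Cebpa of the regulators and Cd44 of the podoplanin partners. Cldn18, Nkx2-1, Gata6, Tead1, Foxj1, Prox1, Wap, Marco and Siglecf were named after their values were seen. Alternatives were the unit of replication, pseudocount, filter, normalization, probe set and the arrays used.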

Additional observations from a re-analysis of the deposited data

How the results depend on the processing

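With 3 KO and 3 Het arrays and possibly 1 Het mouse, only very large differences could pass. The limma count of 0 probe sets and of 0 members called held under all 16 alternatives of the fit. The mean difference over the 7 members (0.40) was 0.38 to 0.41 with other pseudocounts and quantile normalization, 0.47 with the mean over the probe sets of a gene and 0.44 without Cav1, Emp2 and Pdpn. It ran from 0.08 without KO replicate 1 to 0.83 without KO replicate 3, was 0.60 without Het replicate 1, and was -0.01 without KO replicate 1 and Het replicate 2. Without KO replicate 1 and Het replicate 1, chosen after seeing the data, it was 0.28, and likewise 0.27 without Aqp5. For Ager, Hopx and Rtkn2 alone, leaving out Aqp5 as well as Cav1, Emp2 and Pdpn, it was 0.19.

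The number of members whose arrays did not overlap between KO and Het ran from 0 to 4 when 1 array was left out, with 4 without KO replicate 3 (36.7% of all probe sets on the same arrays) and 1 without Het replicate 1 (26.8%). It was 1 without both KO replicate 1 and Het replicate 1 (39.1%). These shares were computed after seeing the data. When 1 array was left out, the differences ran from -0.15 to 1.07 for Ager, 0.78 to 1.91 for Aqp5, -0.36 to 0.44 for Hopx, 0.17 to 0.73 for Pdpn, -0.12 to 0.52 for Rtkn2, -0.0081 to 0.59 for Emp2 and 0.19 to 0.65 for Cav1, with the highest value without KO replicate 3 except for Cav1. Of 105 values of single members under the alternatives, 90 kept their sign and 15 did not, and none of these passed the test. Without KO replicate 1, Ager was at -0.15, Emp2 at -0.0081, Hopx at -0.36 and Rtkn2 at -0.12. Without KO replicate 1 and Het replicate 2, Ager was at -0.44, Emp2 at -0.080, Hopx at -0.51, Pdpn at -0.022 and Rtkn2 at -0.04. Without KO replicate 1 and Het replicate 1, Hopx was at -0.07 and Rtkn2 at -0.05. Hopx, at 0.001 in the comparison as reported, was also at -0.15 without Het replicate 2, -0.13 without Het replicate 3, -0.08 without KO replicate 2 and -0.00033 with a pseudocount of 1. The cause was not tested. No paired analysis was possible because the labels give the KO and Het arrays no shared replicate numbers.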
